A study of Mus musculus with 2 samples.

Results

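The miR-193 and miR-365 clusters are 2 paralogous loci, each with a miR-193 hairpin followed by a miR-365 hairpin. Mir193a and Mir365-2 lie on mouse chromosome 11, and Mir193b and Mir365-1 lie on chromosome 16. These 4 of the 2202 counted microRNA genes were chosen by their annotated gene names, at a time when their counts in these libraries were already known. Their levels and their difference between the libraries are therefore given as a description, with no test of the members. Of the 4 genes, 2 reached at least 10 counts in both libraries (Mir193a and Mir193b), as did 340 of the 2202 genes, which are called detected here.

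A microRNA hairpin is cut into a short duplex, and a mature strand of it guides a silencing complex to messenger RNAs that pair with its seed, bases 2 to 8. The 3p strands are the forms by which miR-193 and miR-365 are usually known. The chromosome 16 locus is best known from brown fat, the heat-producing fat tissue, where it was found enriched and where the transcription factor Prdm16 raises it. Cell culture work linked it to the formation of mouse brown fat cells, whereas mice without the locus were later found to form brown fat. miR-193a and miR-193b are also studied as brakes on growth in human tumour cells.

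The series holds 1 group of 2 heart samples of male B6CASTF1/J mice, aged 10 days, with 1 microRNA library from each. B6CASTF1/J mice are first-generation hybrids of the laboratory strain C57BL/6J with wild-derived CAST mice, and the alleles of the parents were not told apart here. The labels give replicate numbers 1 and 2, separate tissue samples and no treatment. They also give both samples 1 donor identifier, so the spread between them may not be a spread between animals. Values are counts on the gene strand. Levels are CPM, in which the microRNA gene counts of each library sum to 1000000. The totals were 3748432 counts in replicate 1 and 6305782 in replicate 2, so that 3 counts equalled 0.8003 CPM in replicate 1 and 0.476 CPM in replicate 2. Every gene count left out reads with several places in the genome, which took up 36.8% of replicate 1 and 48.1% of replicate 2.

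The mature forms show what the counts of each gene can hold. They are given 5′ to 3′ from RefSeq (build GRCm38.p6, which has the coordinates of mm10), with the seed in capitals.
miR-193a-5p: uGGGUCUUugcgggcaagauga
miR-193b-5p: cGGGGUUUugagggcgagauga
miR-193a-3p: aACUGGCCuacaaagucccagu
miR-193b-3p: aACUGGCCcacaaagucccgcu
miR-365-1-5p: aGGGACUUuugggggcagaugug
miR-365-2-5p: aGGGACUUucaggggcagcugug
miR-365-3p: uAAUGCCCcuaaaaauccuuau

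The miR-193 3p forms share the seed ACUGGCC, and no other mouse gene in the RefSeq table has it. miR-193a-3p differs from miR-193b-3p at 3 of 22 positions, counted from 1 at the 5′ end of miR-193a-3p, by U9C, A20G and G21C, none of them in the seed. The 5p forms differ at 5 of 22 positions (U1C, U5G, C6U, C11A and A16G), of which 2 are in the seed, so these arms have seeds of their own. Each of the 4 miR-193 forms occurred in 1 of the 2202 counted hairpins. Reads of miR-193a and miR-193b can therefore be told apart when they match exactly.

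Both miR-365 genes encode the same miR-365-3p, with the seed AAUGCCC. That form occurred in 2 of the 2202 hairpins, Mir365-1 and Mir365-2. The stretch that these hairpins share is longer than the mature form and is shown because it sets which reads can be placed, with miR-365-3p in capitals.
shared stretch of Mir365-1 and Mir365-2: ucaUAAUGCCCCUAAAAAUCCUUAUug

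This stretch of 27 bases reaches 3 bases past the 5′ end of miR-365-3p and 2 bases past its 3′ end. A read that lies inside it fits both loci exactly and has no single place in the genome. The miR-365 5p forms share the seed GGGACUU but differ at 3 of 23 positions. Counted from the 5′ end of miR-365-2-5p, these are C10U, A11G and C19A. The Mir365-1 and Mir365-2 counts below can thus hold reads of the 5p arm and reads that run past the shared stretch, and they are no measure of miR-365-3p in the heart. How the several-place reads divided among microRNAs was not analysed here.

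The hairpins are printed with both mature forms in capitals, since the longer RNA is the unit that was counted.
Mir193a: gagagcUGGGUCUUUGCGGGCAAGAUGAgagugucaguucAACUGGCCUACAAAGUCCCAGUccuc
Mir365-2: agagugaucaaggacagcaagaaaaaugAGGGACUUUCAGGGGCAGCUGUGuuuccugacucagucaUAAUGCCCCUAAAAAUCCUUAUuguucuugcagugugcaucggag
Mir193b: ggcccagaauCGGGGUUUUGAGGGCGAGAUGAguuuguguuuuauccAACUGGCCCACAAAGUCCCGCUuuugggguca
Mir365-1: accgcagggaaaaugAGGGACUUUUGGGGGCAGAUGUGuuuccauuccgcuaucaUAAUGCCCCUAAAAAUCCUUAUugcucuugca

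Mir193a (ENSMUSG00000065395.1) spans chr11:79711969-79712034 and Mir365-2 (ENSMUSG00000065489.1) spans chr11:79726400-79726511, both on the plus strand of mm10. No other annotated gene overlaps either hairpin, and the nearest gene before Mir193a is the long non-coding RNA Gm11205, 6549 bases away. A gap of 14365 bases separates the hairpins. Mir193b (ENSMUSG00000076972.2) spans chr16:13449523-13449601 and Mir365-1 (ENSMUSG00000065449.1) spans chr16:13453840-13453926, also on the plus strand, with a gap of 4238 bases. Both lie in an intron of Gm15738, a non-coding RNA on the opposite strand in GENCODE M21. RefSeq further places both within the long non-coding RNAs Gm32817 (chr16:13447952-13476317) and Gm53058 (chr16:13447952-13467230). GENCODE M21 instead starts Gm32817 after Mir365-1.

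Paralogous hairpins were alike in part only. Mir193a and Mir193b had 48 identical bases over 79 aligned columns (60.8%), and their longest shared stretch was 10 bases. Mir365-2 and Mir365-1 had 74 over 113 columns (65.5%), with the 27 shared bases above.

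**Figure D1:**
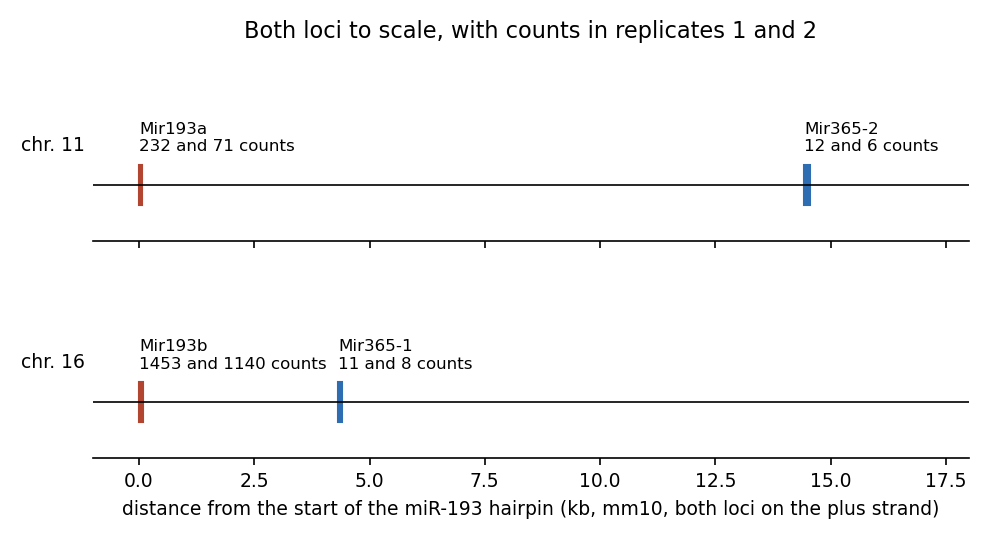
Positions of the 4 hairpins, drawn to scale as distance in kb from the start of the miR-193 hairpin of each locus, with the counts of replicates 1 and 2. The hairpins are 14365 bases apart on chromosome 11 and 4238 bases apart on chromosome 16, and the miR-193 hairpin of each locus holds most of its counts.

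Mir193b had the most counts of the 4 genes. It had 1453 counts in replicate 1 and 1140 in replicate 2, or 388 CPM and 181 CPM. Its mean of 284 ± 146 CPM (SD, n = 2) ranked 115 of 2202 genes. It ranked 100 in replicate 1 and 132 in replicate 2, so it stood among the upper detected genes of each library.

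Mir193a, its paralog, had 232 counts in replicate 1 and 71 in replicate 2, or 61.9 CPM and 11.3 CPM. Replicate 1 was the higher library for both miR-193 genes. The mean of Mir193a was 36.6 ± 35.8 CPM (SD, n = 2), with an SD close to the mean itself, and it ranked 205. In each library Mir193b lay above Mir193a, and the exact Poisson 95% intervals did not overlap.

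The counts of the miR-365 genes, which leave out reads inside their shared stretch, were near the limit of detection. Mir365-1, the partner of Mir193b, had 11 counts in replicate 1 and 8 in replicate 2, or 2.93 and 1.27 CPM. Mir365-2, the partner of Mir193a, had 12 counts in replicate 1 and 6 in replicate 2, or 3.20 and 0.952 CPM. Each exceeded 3 counts in both libraries but missed 10 counts in replicate 2. Their means of 2.10 ± 1.18 CPM and 2.08 ± 1.59 CPM (SD, n = 2) did not differ beyond the spread.

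The order of the means was thus Mir193b, Mir193a, then Mir365-1 and Mir365-2 together. Together the 4 genes took up 0.0456% of replicate 1 and 0.0194% of replicate 2. The chromosome 16 locus held 391 CPM in replicate 1, against 182 CPM in replicate 2, and the chromosome 11 locus 65.1 CPM against 12.2 CPM. A read spans a whole mature form, so counts were not divided by hairpin length. How ligation and amplification weighed on the order of unlike sequences was not tested. In whole tissue, fewer cells of a type and less RNA per cell cannot be told apart.

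**Figure D2:**
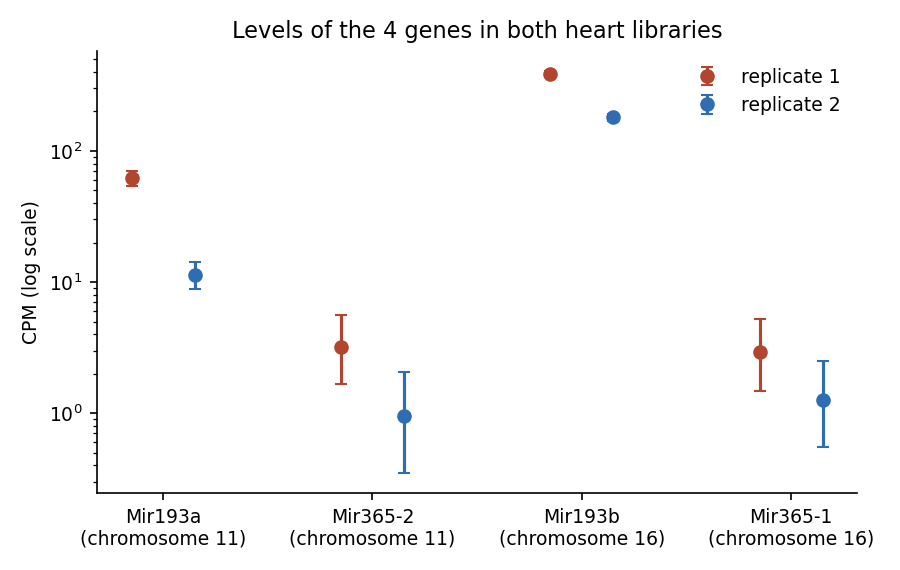
CPM (log axis) of each gene in replicate 1 and replicate 2, with exact Poisson 95% intervals, which cover counting error only. Mir193b sits at 388 CPM in replicate 1 and 181 CPM in replicate 2, Mir193a at 61.9 and 11.3 CPM, and both miR-365 genes lie below 4 CPM.

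All 4 genes had a higher level in replicate 1 than in replicate 2, and Mir193a parted furthest. After TMM scaling, which sets the zero by the bulk of the genes, Mir193a was 4.96-fold higher in replicate 1. Its log2 ratio of replicate 1 over replicate 2 was 2.31, with an exact 95% interval of 1.93 to 2.72. Mir193b was 1.94-fold higher, with a log2 ratio of 0.96 (interval 0.85 to 1.07). The intervals of the miR-193 genes did not overlap. Over the 340 detected genes the median log2 ratio was 0.05, so a positive ratio was common.

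Mir365-1 had a log2 ratio of 1.04 with an interval of -0.38 to 2.59, which holds 0. Mir365-2 had one of 1.55 with an interval of 0.08 to 3.31. Neither reached 10 counts in both libraries, so neither entered the comparison over all detected genes. Both intervals hold the 0.96 of Mir193b, so at these counts a difference from it was not detectable.

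Differences beyond counting error were common. By an exact binomial test of the counts with Benjamini-Hochberg adjustment at 0.05, 72.1% of the 340 detected genes were called in either direction. Those called higher in replicate 1 were 37.9%, those called lower were 34.1%, and 9.41% were called higher by at least 2-fold. The test sets 2 libraries of 1 group against counting error, and it compares no conditions. By log2 ratio Mir193a ranked 5 of 340 toward replicate 1, and Mir193b ranked 35. Over all detected genes the median log2 ratio was 0.05, and the SD was 0.92.

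**Figure D3:**
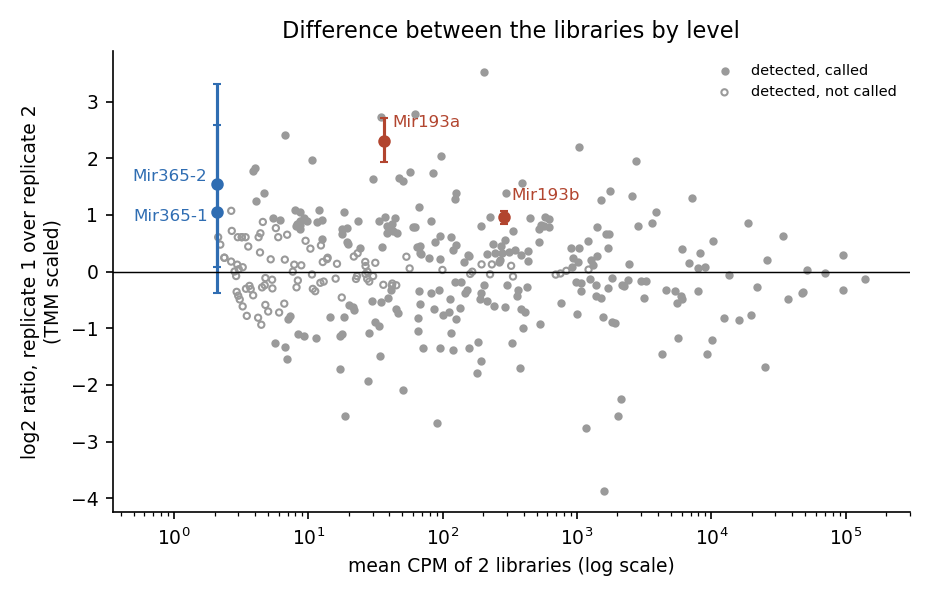
Log2 ratio of replicate 1 over replicate 2 against the mean CPM (log axis) for the 340 detected genes (grey, filled where called) and the 4 miR-193 and miR-365 genes with exact 95% intervals. Mir193a stands at 2.31 and Mir193b at 0.96, while the intervals of Mir365-1 and Mir365-2, at the low end of the level, are wide.

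Within a locus, the miR-193 hairpin held nearly all counts. The miR-365 counts leave out reads inside the stretch that both miR-365 hairpins share, so the shares within a locus describe counted reads only. On chromosome 16, Mir365-1 made up 0.751% of the counts of its locus in replicate 1 (exact 95% interval 0.376% to 1.34%). In replicate 2 it made up 0.697% (0.301% to 1.37%). Mir193b exceeded it 132-fold in replicate 1 and 142.5-fold in replicate 2. The intervals of this share overlapped almost wholly, while the level of the locus was higher in replicate 1.

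On chromosome 11, Mir365-2 made up 4.92% of the counts of its locus in replicate 1 (2.57% to 8.43%). In replicate 2 it made up 7.79% (2.91% to 16.2%), and these intervals overlap. Mir193a exceeded Mir365-2 by 19.3-fold in replicate 1 and 11.8-fold in replicate 2. In replicate 1 the interval of this share lay wholly above that of Mir365-1 on chromosome 16, and the same held in replicate 2. The miR-365 genes themselves had about equal counts in each library, and Mir193a was the lower of the miR-193 genes.

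Between the paralogs, Mir193a made up 13.8% of the miR-193 counts in replicate 1 (12.2% to 15.5%). In replicate 2 it made up 5.86% (4.61% to 7.34%). These intervals do not overlap. This share does not depend on the scaling of the libraries. Mir365-2 made up 52.2% of the miR-365 counts in replicate 1 (30.6% to 73.2%) and 42.9% in replicate 2 (17.7% to 71.1%). The totals behind these last shares were 23 and 14 counts, and both intervals hold an equal split.

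**Figure D4:**
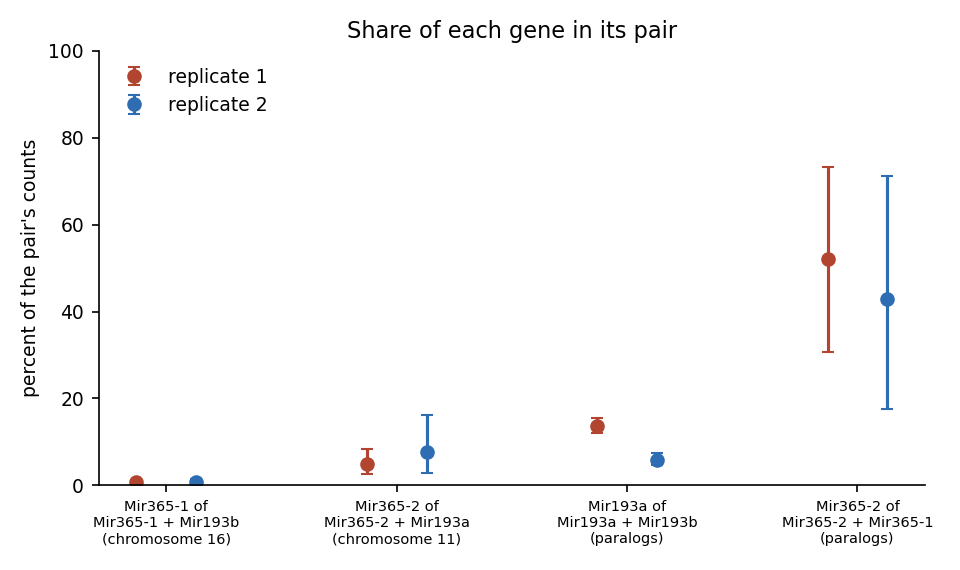
Percent of a pair's counts held by the first-named gene in replicate 1 and replicate 2, with exact Clopper-Pearson 95% intervals. Mir365-1 holds under 1% of its locus in both libraries, and Mir193a holds 13.8% of the miR-193 counts in replicate 1 against 5.86% in replicate 2.

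Neighbouring microRNA genes elsewhere give these values a scale. On 1 strand, with starts within 10 kb, 106 pairs of neighbours were detected. None of the miR-193 and miR-365 genes is in them, because the miR-365 genes were not detected. Mir193a and Mir365-2, whose starts are 14431 bases apart, would also lie outside the 10 kb limit. The log2 ratios of Mir365-1 and Mir193b were 0.09 apart, and those of Mir365-2 and Mir193a 0.76 apart. Over the 106 pairs the median difference was 0.52, with quartiles of 0.24 and 1.19. The intervals of Mir365-1 (-0.38 to 2.59) and Mir365-2 (0.08 to 3.31) are wide, so neither gap could be told from this median. In level, the mean log2 ratio of Mir365-1 over Mir193b was -7.10 ± 0.08 (SD, n = 2), and the median size of this ratio over the 106 pairs was 2.44. The 106 pairs need at least 10 counts of each gene in both libraries, which Mir365-1 did not reach, so they leave out pairs with a nearly absent partner. The Mir365-1 count also leaves out reads inside the stretch shared with Mir365-2, whereas both arms of Mir193b can be counted. The ratio of -7.10 therefore sets a partial count against a fuller one.

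Some pairs with a common seed parted by as much as the miR-193 genes. Mir193a and Mir193b had log2 ratios 1.35 apart. Among 174 pairs of detected genes with a common seed and no identical mature form, the median was 0.58 and the quartiles were 0.28 and 1.13. In 34 of the 174 the gap was at least as large, the miR-193 pair included. Many genes enter several of these pairs, so the pairs are not independent. Some of the genes, such as Mir16-1, have 1 arm that a gene outside the pair encodes identically. Several-place reads of that arm are left out of their counts, so not every pair is like the miR-193 pair.

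The low counts of the miR-365 genes stand beside those of other genes with copied mature forms. Of the counted genes, 1018 were matched by symbol to RefSeq, all 4 miR-193 and miR-365 genes among them. Of these, 57 have 1 arm that another gene encodes identically and 1 that is their own, as Mir365-1 and Mir365-2 do. In that class 35 of 57 genes (61.4%) were detected, with a median of 10.6 CPM, and Mir365-1 and Mir365-2 ranked 38 and 39. At its top stood Mirlet7f-2 with a mean of 6040 CPM and Mir16-1 with a mean of 1917 CPM.

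The classes rest on the arms that RefSeq lists. Genes with every listed arm duplicated were detected in 5 of 37 cases (13.5%). For some of these, detected genes among them, RefSeq lists only 1 arm, so an unlisted arm could be their own. Genes with no listed arm duplicated, the class of Mir193a and Mir193b, were detected in 267 of 924 cases (28.9%). The class with every listed arm duplicated still held counts, led by Mirlet7c-2 at 1030.2 CPM. That gene was named after its values were seen, as were the genes at the top of the class of the miR-365 genes. The part of copied sequence in the low level of the miR-365 genes was not tested.

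**Figure D5:**
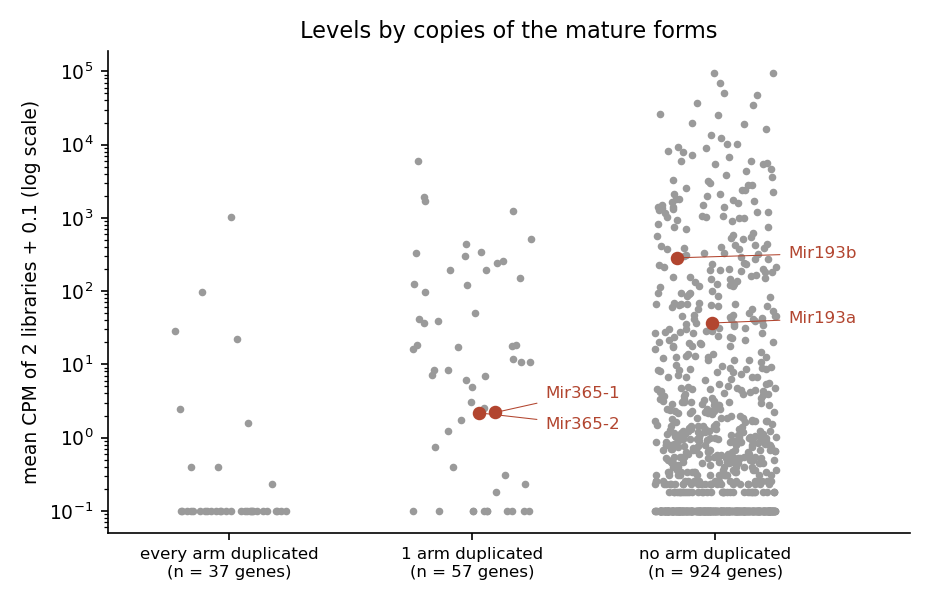
Mean CPM + 0.1 (log axis) of the 1018 genes matched to RefSeq. Classes hold genes with every arm, 1 arm or no arm encoded identically by another gene, among the arms that RefSeq lists. Each point is a gene. Mir365-1 and Mir365-2 lie in the lower part of the middle class at 2.10 and 2.08 CPM, and Mir193b and Mir193a lie at 284 and 36.6 CPM among genes with no duplicated arm.

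The detected genes nearest to each member in level over both libraries were found by Euclidean distance on log2(CPM + 1). With 2 libraries this likeness describes level only. Nearest to Mir193a were Gm23935 with 60.6 CPM in replicate 1, against 8.25 CPM in replicate 2, Mir183 with 47.0 and 13.6 CPM, and Mir543 with 109 and 14.3 CPM. Nearest to Mir193b were Mir154 (441 and 153 CPM), Mir874 (358 and 220 CPM) and Mir574 (324 and 216 CPM). Mir8101, Mir7662 and Mir7b, all with 10 to 14 counts in each library, were nearest to both miR-365 genes.

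Other microRNAs linked to brown fat went both ways. Of 14 genes listed as promoting brown or beige fat, 11 were detected. Of these, 6 were called higher and 4 lower in replicate 1, and 1 was not called, beside 37.9% higher and 34.1% lower among all detected genes. Their median log2 ratio was 0.16, against 0.05 over all detected genes. For Mir455, which promotes brown fat in mice, the levels were 835 CPM in replicate 1 and 399 CPM in replicate 2. Its log2 ratio was 0.92, beside the 0.96 of Mir193b.

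Mir182 had 134 and 36.2 CPM and Mir328 had 1079 and 735 CPM, both called higher in replicate 1. Mir26b and Mir203 were called lower, with 12906 and 37666 CPM for Mir26b and 79.0 and 152 CPM for Mir203. Mir378a, which lies in the gene of a mitochondrial coactivator and was the most abundant of the list, reached 138757 CPM in replicate 1, against 137851 CPM in replicate 2. After TMM scaling its log2 ratio was -0.13, and it was among the genes called lower in replicate 1, a direction that turns with scaling to total counts. Mir196a-1 had no count in either library and Mir196a-2 had 1 in each.

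Of 9 genes listed as restraining brown fat, 7 were detected, with 2 called higher and 3 lower in replicate 1 and 2 not called, against the same shares of 37.9% and 34.1% over all detected genes. Their median log2 ratio was -0.34, against 0.05 over all detected genes. Mir34a, a target of the tumour suppressor p53, reached 2203 CPM in replicate 1, against 832 CPM in replicate 2 (log2 ratio 1.26). Mir93 had 5015 and 5775 CPM, Mir27b had 2795 and 3478 CPM, and both were called lower in replicate 1. Both lists thus held genes called in each direction.

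Marker microRNAs of other cells differed between the libraries as well, in both directions. Summed levels in replicate 1 and replicate 2 were 8268 and 12348 CPM for cardiac muscle (3 genes), 88956 and 100563 CPM for endothelium (1 gene) and 44790 and 53313 CPM for smooth muscle (2 genes). Fibroblast markers had 3826 and 7861 CPM (3 genes), and leukocyte markers 137 and 329 CPM (2 of 3 detected, Mir142b at 0). Mir21a carried most of the fibroblast sum (2474 and 6146 CPM), while Mir214 had 1333 and 1678 CPM. All 3 fibroblast genes were called lower in replicate 1. For red cell markers the sums were 10216 and 8848 CPM (3 genes), with Mir486 called higher in replicate 1 (308 and 144 CPM, log2 ratio 0.96) and Mir144 called lower (316 and 453 CPM, -0.66). Mir451a, which carries most of that sum, was called higher at a log2 ratio of 0.07, and its sign turns with DESeq2 size factors. Markers of epithelium had 476 and 546 CPM (6 genes), most of it from Mir200c (403 and 443 CPM). Of these 6 genes, 1 was called higher and 3 lower in replicate 1, and 2 were not called. The lowest marker sums were those of hepatocytes (57.9 and 77.7 CPM, 1 gene) and skeletal muscle (28.5 and 21.1 CPM, 1 of 2 detected). The cardiac genes were present in both libraries but did not go 1 way. Mir208a was called higher in replicate 1 (3795 and 1362 CPM, log2 ratio 1.34), and Mir208b (794 and 3444 CPM, -2.26) and Mir499 (3678 and 7542 CPM, -1.18) were called lower. The part of cell make-up in the difference of Mir193a and Mir193b was not tested.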

How the data were processed

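MicroRNA sequencing gave 1 library from each of 2 heart samples. The deposited values are raw counts of reads for each microRNA gene, on build mm10 with annotation M21 per the text deposited with the tables. Of the alignment and counting tools nothing is stated in the sources used. Each table has 3 columns of counts, whose strands were inferred from the values, and the gene-strand column was used. For the 4 genes of the loci the both-strand column held the same counts. The 4 entries that name no gene stayed out of all totals. In replicates 1 and 2, several-place reads were 36.8% and 48.1% of all reads, unmapped reads 16.0% and 11.5%, and reads outside genes 4.78% and 3.43%.

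Names and coordinates came from GENCODE M21, and sequences from RefSeq (GRCm38.p6). The libraries were compared with an exact two-sided binomial test (scipy 1.17.1) against library sizes scaled by TMM over all genes (edgeR 4.0.16). Benjamini-Hochberg adjustment ran over the 340 detected genes at 0.05. The test was first checked on simulated counts. These held counting error only, so the check does not bear on further spread between libraries. Log2 ratios used a prior of 0.5 counts. Intervals are exact at 95% and cover counting error only, as amplified reads are not independent molecules. Alternatives were total counts, DESeq2 1.42.0 size factors, no filter, at least 50 counts, the both-strand column and each library alone. The text names the 4 genes, their seed partners, the 3 nearest genes of each, genes of 2 brown fat lists and of the cell markers, and, after their values were seen, the top genes with copied mature forms. The genes and lists were chosen with earlier results of these data known. No model with residual degrees of freedom could be fitted, since the series has 1 group of 2 libraries.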

Additional observations from a re-analysis of the deposited data

How the results depend on the processing

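Each gene of the loci kept a positive log2 ratio, toward replicate 1, under total counts and DESeq2 size factors. No filter and at least 50 counts (the miR-193 genes only) could not change these ratios, because the scaling used every gene with a count. The both-strand column held the same counts for these genes, so it shifted only the library sizes. Its totals of 2756527 in replicate 1 and 4558006 in replicate 2 were below the gene-strand totals of 3748432 and 6305782. With it, 316 genes passed the filter in place of 340. It thus held fewer counts for other genes and is not a fuller count. The ratio ran from 2.23 to 2.45 for Mir193a, from 0.97 to 1.19 for Mir365-1 and from 1.47 to 1.69 for Mir365-2. Total counts moved Mir193b to 1.10, beyond its counting interval, by the shift of 0.14 that this scaling gives every gene, and DESeq2 size factors gave 0.88. The number of called genes was 245, and 214 to 252 under the alternatives. Of the list genes named with a call, the log2 ratio of Mir378a turned to 0.0095 under total counts and that of Mir451a to -0.0029 under DESeq2 size factors. Leaving out a library sets the mean of Mir193a at 61.9 or 11.3 CPM, of Mir193b at 388 or 181 CPM, of Mir365-1 at 2.93 or 1.27 CPM and of Mir365-2 at 3.20 or 0.952 CPM, so the levels of all 4 genes rest on both libraries. The calls cannot be had from 1 library. No paired analysis was possible because the series has only 1 group. Neighbours within 20 kb, a limit added after seeing the data, gave a median difference of 0.56 in place of 0.52. Counts of 6 to 12 limit what can be said of the miR-365 genes.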
